A study of Mus musculus with 8 samples.

Results

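The genes described here are 54 factors that build the large (60S) subunit of the ribosome in the nucleolus and the nucleus, together with a few abundant nucleolar proteins. They were taken by gene symbol from a fixed list of 54 names, out of 58304 genes kept from the deposited expression table, and all 54 were found. The list was written with the difference between the groups in these libraries already known, so the fold changes of its members are given as a description, with no p-value for any member.

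RNA-seq was reported for 8 libraries, 4 of wounds treated with rFGF4 (recombinant fibroblast growth factor 4) and 4 of wounds treated with PBS, a salt buffer that served as the control. Per the labels, all 8 came from skin of C57BL/6 mice aged 6-8 weeks, taken 6 days into healing from the 2 mm zone at the wound edge, as total RNA extracted with TRIzol. The sources used here give neither the dose nor the route of rFGF4. Nothing says that the replicates are separate animals, so p-values measure only the spread between these libraries, which may be technical. The table did not match the labelled tissue. All 58825 of its gene identifiers were human and 0 were mouse. The basal layer keratins KRT5 and KRT14 averaged 910.5 and 1026 FPKM over the 8 libraries, and 8 of 8 basal and 5 of 8 differentiated keratinocyte markers had a mean of at least 1 FPKM. The 3 differentiated markers below that were LOR, at 0 in every library, KRT1 with a mean of 0.1045 FPKM and DSG1 with 0.0024 FPKM. In each of these keratinocyte lists edgeR called 1 gene lower in the rFGF4 libraries, LAMB3 of the basal list, with a log2 fold change (rFGF4 over PBS) of -0.28 (SE 0.07) and an adjusted p of 0.0482, and TGM1 of the differentiated list, at -0.50 (SE 0.13) and 0.0499. Of the marker lists of other skin cells, 0 of 8 fibroblast, 0 of 6 skeletal muscle, 1 of 7 endothelial and 1 of 8 leukocyte genes reached that level, and THY1, MS4A1, MYH2 and MYL1 were listed at 0 in every library. The summed fibroblast markers stood at 0.494 to 0.638 FPKM in the rFGF4 libraries and at 0.921 to 0.989 FPKM in the PBS libraries. Endothelial markers summed to 3.23 to 4.24 FPKM in the rFGF4 libraries and to 1.97 to 3.25 FPKM in the PBS libraries, and leukocyte markers, nearly all of it CD68, to 8.16 to 11.04 FPKM in the rFGF4 libraries and to 7.72 to 8.86 FPKM in the PBS libraries. Muscle markers stayed at or under 0.0536 FPKM in the rFGF4 libraries and 0.113 FPKM in the PBS libraries. The part of these markers in the results below was not tested. The text below therefore speaks of libraries labelled rFGF4 and PBS, and no value is attributed to mouse wounds. The libraries called PBS are the columns named C, which were taken as the controls. In RNA from many cells, a change in the share of cells of one kind and a change in RNA per cell cannot be told apart.

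A ribosome starts as a long precursor RNA that RNA polymerase I makes in the nucleolus, and this RNA is cut, modified and folded while ribosomal proteins join it. The part that becomes the large subunit is held by assembly factors that leave one after another: early factors bring the RNA domains together and dock the 5S ribonucleoprotein, helicases and GTPases remodel the particle, and large AAA ATPases pull factors off before export to the cytoplasm. Growing cells are known to make these factors in large amounts, and growth factor signalling and the transcription factor MYC are known to raise their transcription. In skin, the basal keratinocytes are the dividing cells of the epidermis.

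Each level is given in CPM, in the order of replicates 1 to 4. It is the deposited count scaled, with TMM factors, to the library's summed count over the genes whose mean reached 1 FPKM. FPKM, which is also divided by gene length, is used where genes are compared with each other. A log2 fold change is rFGF4 over PBS, from edgeR's quasi-likelihood fit over all 11536 genes whose mean reached 1 FPKM, and its SE comes from that fit. A gene is said to be called when its Benjamini-Hochberg adjusted p in that fit was under 0.05. Over all genes tested, 633 (5.49%) were called higher and 524 (4.54%) lower in the rFGF4 libraries, and the median log2 fold change was 0.002. Libraries held 62044121 to 73680756 counts, and the lowest value of any member in any library was 17.2 CPM (ZNF593 in PBS replicate 1).

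All 54 members passed the filter on low values. In the rFGF4 libraries 36 of the 54 were called higher and 0 lower by edgeR, against the background of 5.49% and 4.54%; because the choice of members used this contrast, nothing is read from the count. DESeq2 called 44 higher and 0 lower, and limma on log2(FPKM + 1) 29 higher and 0 lower. Over all genes, in both directions together, DESeq2 called 1828, limma on log2(FPKM + 1) 1143 and edgeR 1157. The log2 fold change was above 0 for 53 of 54 members, with a median of 0.40, which is 1.315-fold. The range ran between -0.01 for DDX24 and 0.84 for LYAR, and 26 members were above 0.4. For 45 members the lowest of the 4 rFGF4 libraries was above the highest of the 4 PBS libraries, a separation found for 10.1% of all tested genes, and 0 members were separated the other way. These shares of all genes, 5.49% called higher and 10.1% separated higher, also apply to the counts by role below. Nothing is read from those counts either. The 9 members whose groups overlapped were DDX24, NVL, NSA2, DDX56, SDAD1, NIP7, DDX18, NLE1 and MDN1. The count of called members was 22 without PBS replicate 2, 23 without PBS replicate 3 and 23 without rFGF4 replicate 3, while the median log2 fold change stayed between 0.37 and 0.41 when any 1 library was left out.

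**Figure D1:**
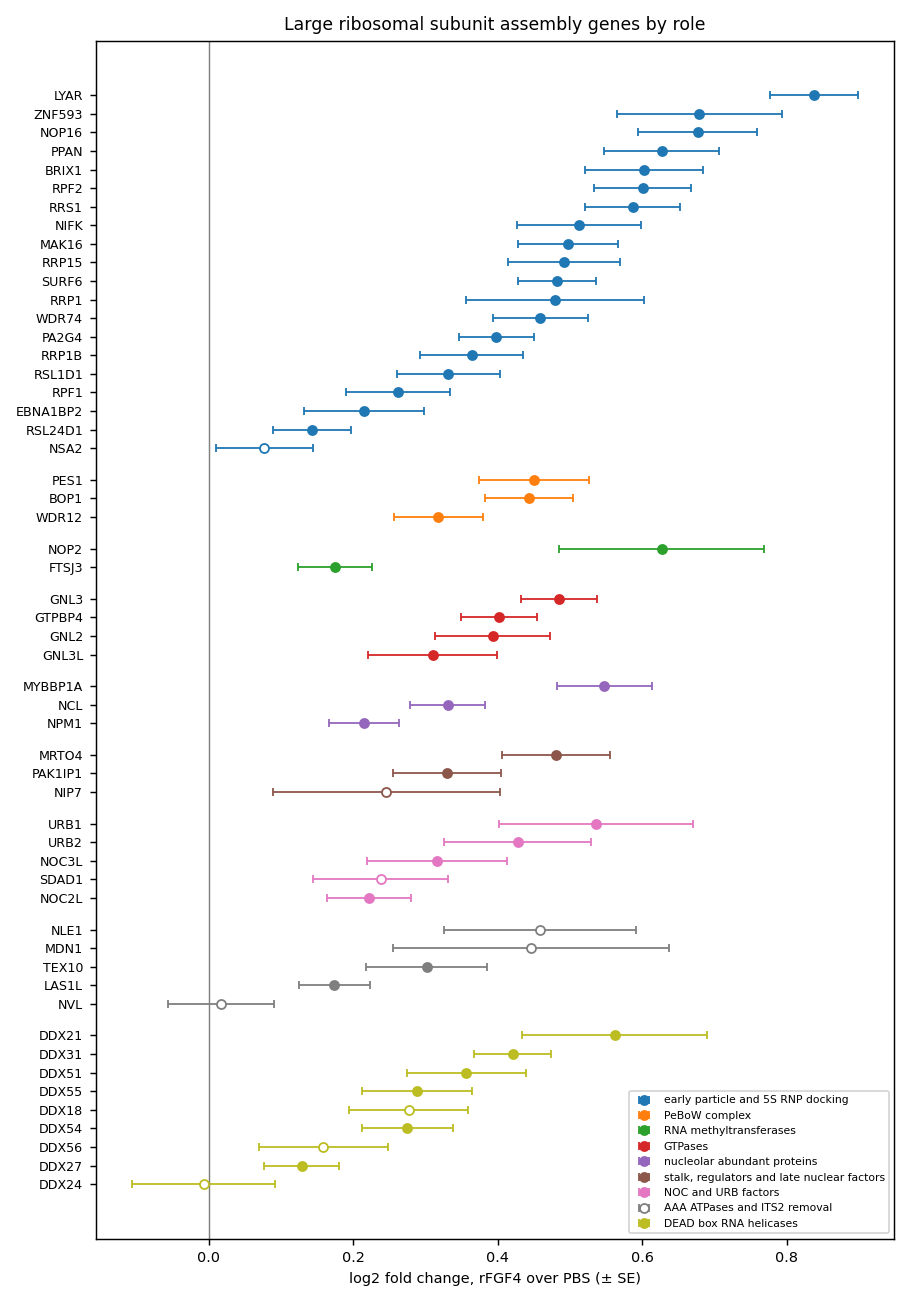
Log2 fold change (rFGF4 over PBS, with its SE) of each of the 54 members, grouped and coloured by role; filled points mark members whose rFGF4 and PBS libraries did not overlap and open points those that did. All points but DDX24 lie right of 0, and LYAR is furthest right at 0.84.

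The group listed as early particle factors and proteins that dock the 5S ribonucleoprotein was the largest, 20 genes with a median log2 fold change of 0.49. As listed, it also held ZNF593 and PA2G4, whose yeast relatives are tied to export of the large subunit. Of these 20, 16 were called higher, 0 lower, and 19 had groups that did not overlap, against 5.49%, 4.54% and 10.1% of all tested genes. Of the 8 members with the largest fold changes of all 54, 7 were in this group, ZNF593 among them. LYAR (ENSG00000145220, chromosome 4, 4267701 to 4290154, minus strand), a nucleolar zinc finger protein that is abundant in growing cells and binds ribosome precursors, had 63.6, 60.3, 62.7 and 68.7 CPM in the rFGF4 libraries, against 33.9, 36.4, 36.9 and 35.6 CPM in the PBS libraries. Its groups were far apart and even within themselves, with a log2 fold change of 0.84 (SE 0.06). Per length it averaged 22.8 ± 0.708 FPKM in the rFGF4 libraries and 13.0 ± 0.522 FPKM in the PBS libraries (SD, n = 4 each).

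ZNF593 (ENSG00000142684, chromosome 1, 26169908 to 26170873, plus strand) is the human relative of yeast Bud20, a zinc finger protein that shuttles out of the nucleus with the large subunit. It had 28.2, 27.9, 29.0 and 36.8 CPM in the rFGF4 libraries, against 17.2, 18.2, 21.0 and 19.6 CPM in the PBS libraries, a log2 fold change of 0.68 (SE 0.11). The groups did not overlap, and rFGF4 replicate 4 stood well above its 3 group mates. NOP16 (ENSG00000048162, chromosome 5, 176383938 to 176388762, minus strand), a component of early large subunit precursors in yeast, showed 85.2, 89.0, 87.0 and 105 CPM in the rFGF4 libraries and 55.8, 53.8, 58.0 and 61.7 CPM in the PBS libraries. Its log2 fold change was 0.68 (SE 0.08), and here too rFGF4 replicate 4 was the highest library.

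PPAN, BRIX1, RPF1 and RPF2 share the Brix domain, a fold that binds ribosomal RNA in the nucleolus. PPAN (ENSG00000130810, chromosome 19, 10106362 to 10112012, plus strand), the relative of yeast Ssf1, gave 54.9, 48.8, 52.5 and 55.5 CPM in the rFGF4 libraries, against 32.5, 32.4, 38.8 and 33.4 CPM in the PBS libraries. The log2 fold change was 0.63 (SE 0.08) with no overlap between groups. The table also holds the read-through gene PPAN-P2RY11 and the gene P2RY11 over the same span, so counts there may be shared and the level of PPAN is uncertain. BRIX1 (ENSG00000113460, chromosome 5, 34915376 to 34925996, plus strand), relative of yeast Brx1, stood at 83.7, 103, 87.4 and 97.7 CPM in the rFGF4 libraries and at 66.9, 60.5, 58.4 and 58.6 CPM in the PBS libraries. That is a log2 fold change of 0.60 (SE 0.08); replicates 2 and 4 were the higher rFGF4 libraries, and replicate 1 was the highest PBS library. RPF1 was at the lower end of this family, at 0.26 (SE 0.07), and was not called, although its groups did not overlap.

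RPF2 and RRS1 work as a pair: together they bring the 5S RNA, with ribosomal proteins RPL5 and RPL11, into the precursor. RPF2 (ENSG00000197498, chromosome 6, 110982015 to 111028263, plus strand) had 49.1, 49.5, 51.1 and 49.6 CPM in the rFGF4 libraries, against 33.9, 33.1, 35.1 and 29.4 CPM in the PBS libraries. The 4 rFGF4 libraries were within 2 CPM of each other, and the log2 fold change was 0.60 (SE 0.07). RRS1 (ENSG00000179041, chromosome 8), its partner, had 139.5, 142, 140.1 and 156 CPM in the rFGF4 libraries and 89.6, 95.7, 95.8 and 104 CPM in the PBS libraries. Replicate 4 was the highest library in both groups, the groups did not overlap, and the log2 fold change was 0.59 (SE 0.07), close to that of RPF2. Per length RRS1 was the more abundant of the pair, averaging 69.0 ± 2.62 FPKM in the rFGF4 libraries and 46.8 ± 2.35 FPKM in the PBS libraries (SD, n = 4 each), while RPF2 averaged 10.4 ± 0.303 FPKM in the rFGF4 libraries and 7.01 ± 0.612 FPKM in the PBS libraries (SD, n = 4 each).

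**Figure D2:**
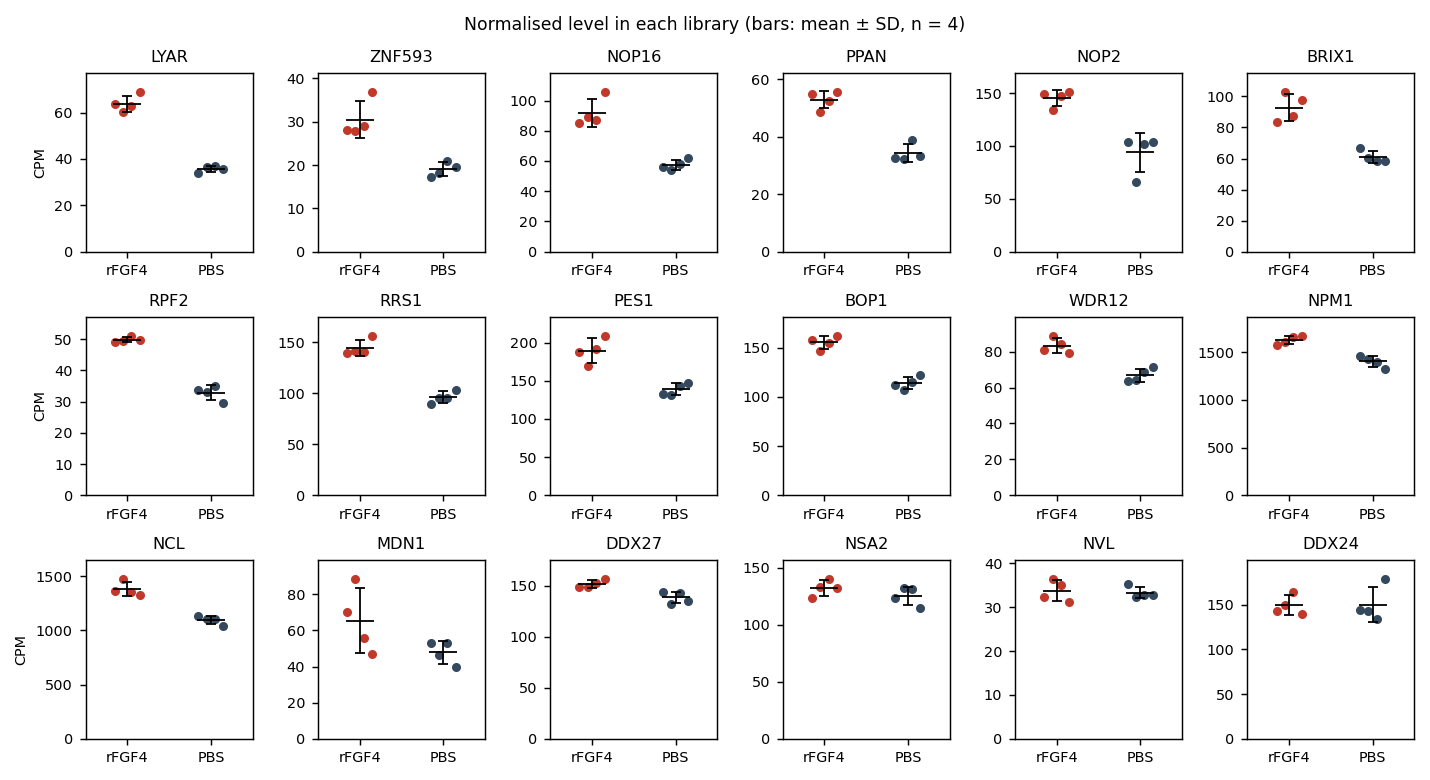
CPM in each library for 18 members, the rFGF4 libraries (red, left) beside the PBS libraries (dark blue, right) with replicates 1 to 4 in order within a group and the mean ± SD; every axis starts at 0. The groups are apart for the 8 members with the largest fold changes, for PES1, BOP1, WDR12, NPM1, NCL and DDX27, and overlap for MDN1, NSA2, NVL and DDX24.

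The other 12 members of the early group spanned log2 fold changes of 0.08 to 0.51. NIFK, which binds the proliferation protein MKI67 and is the relative of yeast Nop15, stood at 0.51 (SE 0.09). MAK16 and WDR74, which in yeast sit with RPF1's relative on one early subcomplex, stood at 0.50 (SE 0.07) and 0.46 (SE 0.07). RRP15 and SURF6, both needed for early cleavage and packing in yeast, had 0.49 (SE 0.08) and 0.48 (SE 0.05). The sister genes RRP1 and RRP1B, relatives of a single yeast factor, stood at 0.48 (SE 0.12) and 0.36 (SE 0.07), and were called under 9 and 14 of 17 alternative settings. PA2G4, the relative of the yeast export factor Arx1, was at 0.40 (SE 0.05), with 601, 632, 627 and 618 CPM in the rFGF4 libraries, against 452, 505, 458 and 466 CPM in the PBS libraries. The remaining members of this group were smaller in difference: RSL1D1 at 0.33 (SE 0.07), EBNA1BP2 at 0.21 (SE 0.08) and RSL24D1, which holds the place of a ribosomal protein until late assembly in yeast, at 0.14 (SE 0.05). EBNA1BP2 and RSL24D1 were not called, though the groups of each were separate. NSA2 (ENSG00000164346, chromosome 5, 74766991 to 74776910, plus strand), a factor of nuclear precursors in yeast, had 123, 133, 139.9 and 133 CPM in the rFGF4 libraries, against 124, 132, 131 and 115 CPM in the PBS libraries. The ranges overlapped for most of their length, with a log2 fold change of 0.08 (SE 0.07).

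PES1, BOP1 and WDR12 form the PeBoW complex, which is needed to cut the spacer between the RNAs of the large subunit. All 3 had groups that did not overlap and all 3 were called higher, against 10.1% and 5.49% of all tested genes. Their median log2 fold change was 0.44. PES1 (ENSG00000100029, chromosome 22, 30576625 to 30607083, minus strand) had 188, 169.3, 192 and 209 CPM in the rFGF4 libraries, against 133, 131, 144 and 147 CPM in the PBS libraries, and a log2 fold change of 0.45 (SE 0.08). BOP1 (ENSG00000261236, chromosome 8) showed 158, 146, 155 and 162 CPM in the rFGF4 libraries and 112, 107, 115 and 122 CPM in the PBS libraries, with 0.44 (SE 0.06). For WDR12 (ENSG00000138442, chromosome 2, 202874782 to 203014798, minus strand) the values were 81.1, 88.8, 84.4 and 79.1 CPM in the rFGF4 libraries, against 63.4, 64.4, 68.5 and 71.2 CPM in the PBS libraries. Its log2 fold change of 0.32 (SE 0.06) was the smallest of the 3, and within the PBS group its replicate 4 was the highest while within the rFGF4 group replicate 4 was the lowest. PES1 and BOP1 were at nearly equal levels per length, averaging 34.4 ± 1.97 and 33.2 ± 0.851 FPKM in the rFGF4 libraries and 25.6 ± 1.43 and 24.85 ± 1.31 FPKM in the PBS libraries, whereas WDR12 averaged 7.54 ± 0.578 FPKM in the rFGF4 libraries and 6.14 ± 0.31 FPKM in the PBS libraries (SD, n = 4 each).

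The abundant nucleolar proteins NPM1, NCL and MYBBP1A were all called higher, with a median log2 fold change of 0.33 and no overlap between groups. NPM1 (ENSG00000181163, chromosome 5, 171387116 to 171411137, plus strand), nucleophosmin, the histone-binding chaperone that fills the outer zone of the nucleolus, was the most abundant member, with a mean of 328.1 FPKM. Its counts gave 1573, 1607, 1658 and 1671 CPM in the rFGF4 libraries, against 1461, 1426, 1398 and 1325 CPM in the PBS libraries. The groups were separate, but the log2 fold change was only 0.21 (SE 0.05), and it was called under 7 of 17 alternative settings. The table lists 46 genes named as copies of NPM1, so reads may have been divided among them. NCL (ENSG00000115053, chromosome 2, 231453531 to 231483641, minus strand), nucleolin, which binds ribosomal RNA as it is made, had 1362, 1471, 1359 and 1324 CPM in the rFGF4 libraries and 1133, 1101, 1106 and 1045 CPM in the PBS libraries. Its log2 fold change was 0.33 (SE 0.05), and replicate 4 was the lowest library of each group. MYBBP1A, a nucleolar protein known to bind MYB and p53, showed 143, 126, 131 and 118 CPM in the rFGF4 libraries, against 88.9, 87.1, 89.9 and 89.0 CPM in the PBS libraries. It had the largest difference of the 3, at 0.55 (SE 0.07), with a PBS group that was very even.

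Enzymes that modify or remodel the RNA varied more among themselves. NOP2 (ENSG00000111641, chromosome 12, 6556863 to 6568332, minus strand), a cytosine methyltransferase of the large subunit RNA also called NSUN1, had 149.5, 134, 147 and 151 CPM in the rFGF4 libraries, against 104, 66.1, 102 and 104 CPM in the PBS libraries. The log2 fold change was 0.63 (SE 0.14), with PBS replicate 2 far below the other PBS libraries. NOP2 was called under 12 of 17 alternative settings. FTSJ3, the other RNA methyltransferase of the list, stood at 0.17 (SE 0.05) and was not called, though its groups were separate.

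The 9 DEAD box RNA helicases, which use ATP to open RNA duplexes, had a median log2 fold change of 0.28. Of them 5 were called higher and 6 had groups that did not overlap, against 5.49% and 10.1% of all tested genes. DDX21, known to bind both ribosomal RNA and RNA polymerase II genes, was the largest at 0.56 (SE 0.13), with 385, 403, 368 and 273 CPM in the rFGF4 libraries, against 262, 234, 260.0 and 212 CPM in the PBS libraries. In both groups replicate 4 was the lowest library of DDX21, and the lowest rFGF4 library was close to the highest PBS library. DDX31 stood at 0.42 (SE 0.05), DDX51 at 0.36 (SE 0.08), DDX55 at 0.29 (SE 0.08) and DDX54 at 0.28 (SE 0.06), all 4 with separate groups. Of 17 alternative settings, DDX31 was called under 17, DDX21 and DDX54 under 8, DDX51 under 7 and DDX55 under 1, and limma called 3 helicases. DDX18 at 0.28 (SE 0.08) and DDX56 at 0.16 (SE 0.09) were not called and their groups overlapped. DDX27 (ENSG00000124228, chromosome 20, 49219295 to 49244077, plus strand), relative of yeast Drs1, had 148, 149, 153 and 156 CPM in the rFGF4 libraries, against 144, 132, 143 and 135 CPM in the PBS libraries. Its groups were separated by less than 5 CPM, its log2 fold change was 0.13 (SE 0.05), and it was not called. DDX24 (ENSG00000089737, chromosome 14, 94048287 to 94081202, minus strand), relative of yeast Mak5, showed 142, 149.7, 165 and 139.6 CPM in the rFGF4 libraries and 144, 143, 134 and 178 CPM in the PBS libraries. The ranges overlapped, PBS replicate 4 was the highest of all 8 libraries, and the log2 fold change was -0.01 (SE 0.10), the only one below 0 in this fit; under the alternatives it took either sign, between -0.058 and 0.115.

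The 4 nucleolar GTPases were close in log2 fold change and all had separate groups. GNL3, also called nucleostemin and known for its level in stem and tumour cells, stood at 0.48 (SE 0.05), with 124.5, 118, 125 and 118 CPM in the rFGF4 libraries, against 83.2, 85.9, 90.7 and 87.1 CPM in the PBS libraries. GTPBP4, the relative of yeast Nog1, stood at 0.40 (SE 0.05) and GNL2, the relative of yeast Nog2, at 0.39 (SE 0.08), called under 12 of 17 alternative settings. GNL3L, the closest relative of GNL3, was the least abundant member per length, with a mean of 2.38 FPKM, and at 0.31 (SE 0.09) it was the one GTPase that was not called.

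The NOC and URB factors are large scaffold proteins of nucleolar precursors in yeast. Of 5, 3 were called higher by edgeR, 4 by DESeq2 and 0 by limma, and 4 had separate groups. Over all tested genes edgeR called 5.49% higher, and 10.1% were separated in that direction. URB1 and URB2 stood at 0.54 (SE 0.13) and 0.43 (SE 0.10), and were called under 7 and 6 of 17 alternative settings. NOC3L was at 0.32 (SE 0.10), SDAD1 at 0.24 (SE 0.09) and NOC2L at 0.22 (SE 0.06); NOC2L was called, though under only 3 of 17 alternative settings, and the other 2 were not. Among the factors that keep the stalk site or act later in the nucleus, MRTO4, which holds the place of the stalk protein RPLP0, stood at 0.48 (SE 0.07). PAK1IP1, relative of yeast Mak11, was at 0.33 (SE 0.07) and was called under 8 of 17 alternative settings. NIP7, an RNA-binding factor, had 92.2, 71.3, 101 and 66.6 CPM in the rFGF4 libraries, against 76.1, 70.5, 55.7 and 77.1 CPM in the PBS libraries. Its groups overlapped widely, with a log2 fold change of 0.25 (SE 0.16).

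The AAA ATPases and the spacer removal factors were the one role with 0 of 5 called by edgeR. At an unadjusted p under 0.05 in that fit 4 were counted, DESeq2 called 3 and limma 0, and the median log2 fold change of the 5 was 0.30. The share of all genes at an unadjusted p under 0.05 was not taken, and DESeq2 called 1828 of all genes in both directions together. Nothing is read from these counts. MDN1 (ENSG00000112159, chromosome 6, 89642498 to 89819794, minus strand), the giant ATPase known in yeast as Rea1, which pulls factors off the particle, had 70.3, 88.2, 55.6 and 47.2 CPM in the rFGF4 libraries, against 52.8, 46.4, 53.1 and 39.7 CPM in the PBS libraries. The rFGF4 libraries spread widely and the lowest of them lay inside the PBS range, and the log2 fold change was 0.45 (SE 0.19), about the size of that of BOP1 but with a wider error. NLE1, which anchors MDN1 on the particle, had 39.8, 59.7, 57.3 and 62.8 CPM in the rFGF4 libraries, against 39.2, 38.4, 41.9 and 40.2 CPM in the PBS libraries. In NLE1 rFGF4 replicate 1 lay in the PBS range and the other 3 above it, and the log2 fold change was 0.46 (SE 0.13). TEX10 and the endonuclease LAS1L, which act in one complex on the spacer, had separate groups at 0.30 (SE 0.08) and 0.17 (SE 0.05), without a call. NVL (ENSG00000143748, chromosome 1, 224227334 to 224330187, minus strand), the ATPase known in yeast as Rix7, had 32.3, 36.4, 35.2 and 31.2 CPM in the rFGF4 libraries, against 35.3, 32.4, 32.9 and 32.9 CPM in the PBS libraries. Its groups overlapped, and the log2 fold change was 0.02 (SE 0.07), of either sign under the alternatives (-0.021 to 0.048).

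Seen by library, the median member lay above its gene's mean in 4 of 4 rFGF4 libraries and below it in 4 of 4 PBS libraries. With each gene set to 0 at the mean of its 2 group means on the log2 CPM scale, the median member stood at 0.19, 0.22, 0.20 and 0.16 in rFGF4 replicates 1 to 4, and at -0.17, -0.21, -0.16 and -0.19 in PBS replicates 1 to 4. In the rFGF4 libraries 50, 51, 54 and 43 of the 54 members lay above 0, and 2 did in each PBS library. The lowest rFGF4 median and the highest PBS median were therefore well apart, although these values are those the members were chosen on. Per length, the summed level of the 54 members was 1621 to 1712 FPKM in the rFGF4 libraries and 1282 to 1359 FPKM in the PBS libraries, which is 0.477% to 0.58% of all FPKM in the rFGF4 libraries and 0.405% to 0.449% in the PBS libraries.

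MYC, the transcription factor known to drive ribosome synthesis, had groups that overlapped. It stood at 98.05, 42.7, 6.65 and 61.5 CPM in the rFGF4 libraries, against 80.0, 70.7, 81.5 and 56.1 CPM in the PBS libraries, and its log2 fold change was -0.46 (SE 0.61) with an adjusted p of 0.701 in edgeR's quasi-likelihood fit. The rFGF4 libraries held both the highest value and the lowest. In rFGF4 replicate 3, where MYC stood at 6.65 CPM, all 54 members lay above 0 with a median of 0.20. In rFGF4 replicate 1, where MYC stood at 98.05 CPM, the members' median was 0.19. These are single libraries and the values the members were chosen on, and any part of MYC in the members' levels was not tested.

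**Figure D3:**
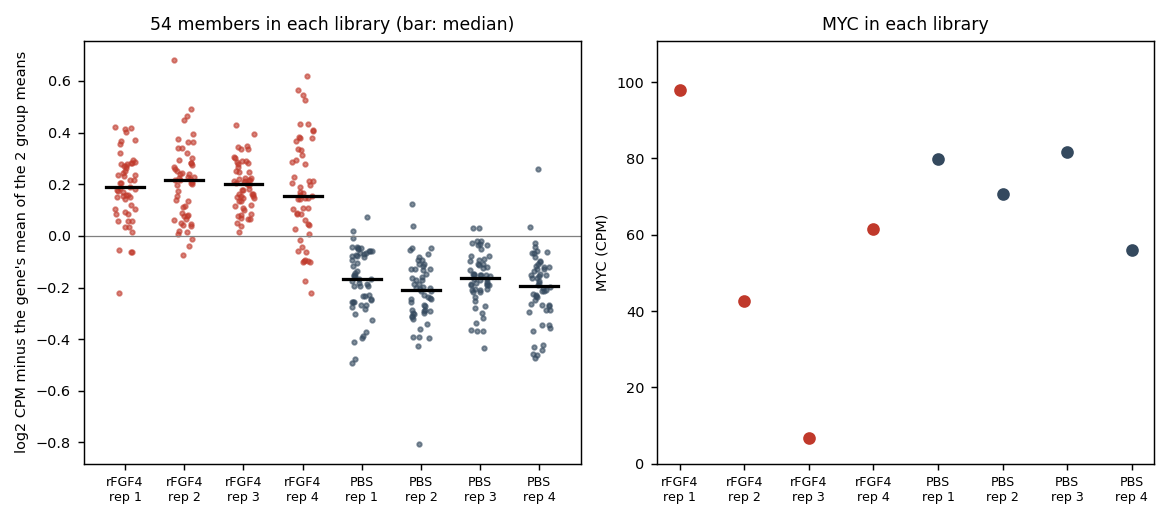
Left, log2 CPM of the 54 members in each library after setting each gene to 0 at the mean of its 2 group means, with the median as a bar; right, CPM of MYC in the same libraries. The medians are 0.16 to 0.22 in the rFGF4 libraries and -0.21 to -0.16 in the PBS libraries, while MYC is at 6.65 CPM in rFGF4 replicate 3 and between 42.7 and 98.05 CPM in the others.

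The spread among members within a group followed gene length in some libraries. Relative length was taken from the ratio of count to FPKM and set to 1 for the median tested gene, and it ran between 0.161 for ZNF593 and 4.1 for MDN1. In rFGF4 replicate 4, the deviation of a member from the other 3 libraries of its group had a Spearman correlation of -0.60 with relative length across the 54 members, and the same over 11506 tested genes was -0.42. Genes share a library and are not independent replicates, so these values are descriptions. There the 27 longer members lay at a median of -0.10 and the 27 shorter ones at 0.09. PBS replicate 4 had correlations of -0.27 over members and -0.29 over all genes. Larger in size over members, and positive, were PBS replicate 1 at 0.49, rFGF4 replicate 2 at 0.48 and rFGF4 replicate 1 at 0.32. The remaining libraries were between -0.10 and 0.10. Each deviation is taken against the library's group mates, so the values within a group depend on each other. The fold change itself had a correlation of -0.23 with relative length over members and -0.11 over all genes tested, with a median log2 fold change of 0.33 in the 27 longer members and 0.46 in the 27 shorter ones. Length moves with part of the spread in this way, and its part in the differences between groups was not tested. With both libraries numbered 4 left out, 30 members were called and the median log2 fold change was 0.39. Abundance had almost no relation to the fold change, with a Spearman correlation of -0.06 with mean FPKM over members and 0.07 over all genes.

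**Figure D4:**
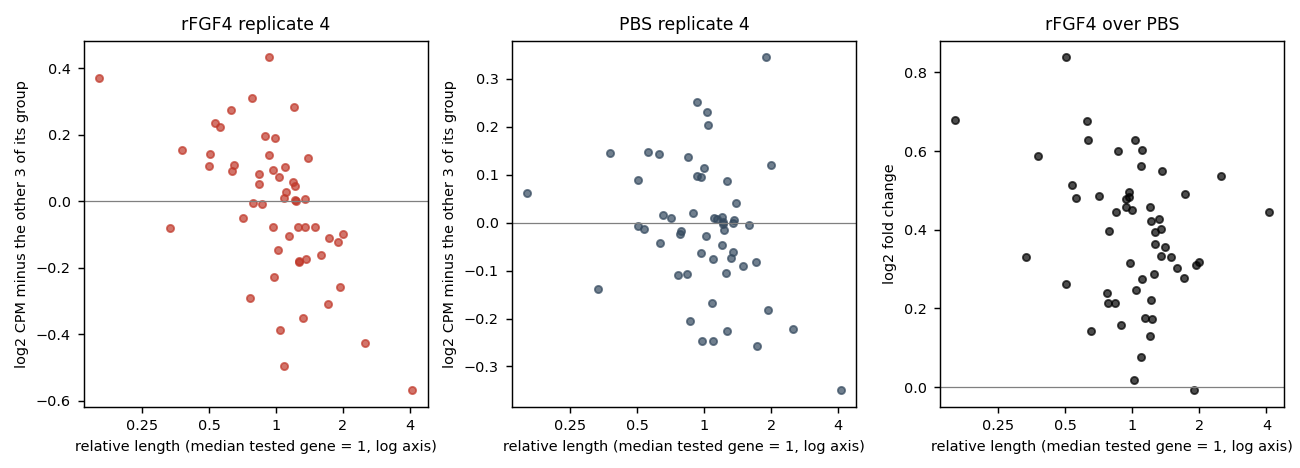
Deviation of each of the 54 members from the other 3 libraries of its group in rFGF4 replicate 4 (left) and PBS replicate 4 (middle), and log2 fold change (right), against relative length on a log axis. In rFGF4 replicate 4 the longer members lie lower, with a Spearman correlation of -0.60, against -0.27 in PBS replicate 4 and -0.23 for the fold change.

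The members are scattered over 21 chromosomes, 9 of them on chromosome 1, in the positions the table gives. A protein-coding gene that starts within 1000 bases on the other strand and reads away was found for 11 members (20.4%), against 1425 of all tested genes (12.4%). At these shared start regions 7 of the 11 partners passed the filter, and edgeR called 0 of them in either direction. At an unadjusted p under 0.05, 3 partners were higher and 1 lower, and DESeq2 and limma each called 1 higher. Over all genes, in both directions together, DESeq2 called 1828 and limma on log2(FPKM + 1) 1143. The share of all genes at an unadjusted p under 0.05 was not taken, so nothing is read from these partner counts. The median log2 fold change of the 7 partners was 0.27. NOC4L, a small subunit factor that starts 138 bases from DDX51, stood at 0.32 (SE 0.14) on the log2 fold scale with an edgeR adjusted p of 0.185, against 0.36 for DDX51. TAF5L, 200 bases from URB2, stood at -0.03 (SE 0.21) with an edgeR adjusted p of 0.946, against 0.43 for URB2. A small nucleolar RNA gene lies inside 5 members on the same strand (9.26%; PPAN, URB1, GNL3, NCL and DDX55), against 245 tested genes (2.12%). GNL3 carries 4 of them in the table, SNORD19, SNORD19B, SNORD19C and SNORD69, and NCL carries SNORD20, SNORD82 and SNORA75. The 5 hosts had a median log2 fold change of 0.485 and the other 49 members 0.39. The spans of 30 members (55.6%) overlap another protein-coding gene, against 3821 tested genes (33.1%); the sources used here do not say if reads were counted by strand, so these counts may include reads of the neighbour. Apart from NPM1, the table names 9 copies of RSL24D1, 8 of NIFK, 5 each of PA2G4 and DDX18, 4 of SDAD1 and 3 of NIP7, and their levels are uncertain because reads may be divided among them.

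Other genes of ribosome synthesis are set beside the members. These lists too were chosen with earlier results of these data known, so their counts and adjusted p are given as descriptions. Of 38 other large subunit assembly and export factors, all past the filter, 6 (15.8%) were called higher and 0 lower by edgeR, against 5.49% and 4.54% of all genes. Separate groups were found for 15, all higher in the rFGF4 libraries, a separation seen for 10.1% of all tested genes. DESeq2 called 13 higher and 0 lower, and limma on log2(FPKM + 1) 5 higher and 0 lower. Of all genes, in both directions together, DESeq2 called 1828, limma 1143 and edgeR 1157. Their median log2 fold change was 0.22, with 34 of 38 above 0. The count was 1 without PBS replicate 2, 2 without rFGF4 replicate 3, 3 without PBS replicate 4 and 3 without both libraries numbered 4. CCDC86, the human relative of yeast Cgr1, rose, at 0.73 (SE 0.10) on the log2 fold scale and an edgeR adjusted p of 0.00312, and it was called under all 17 alternative settings. The other named factors of this list were GRWD1, a chaperone of RPL3, at 0.39 (SE 0.07) with an adjusted p of 0.013, LLPH at 0.25 (SE 0.05) with 0.018 and RBM28, relative of yeast Nop4, at 0.29 (SE 0.06) with 0.0184, all in edgeR's fit. GRWD1 was called under 16 of 17 alternative settings, and LLPH and RBM28 under 11.

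The small subunit processome list is named for the particle that handles the other end of the same precursor. It had 26 of 54 genes called higher (48.1%) and 0 lower by edgeR, against 5.49% and 4.54% of all genes. Separate groups were found for 33, all higher in the rFGF4 libraries, a separation seen for 10.1% of all tested genes. DESeq2 called 35 higher and 0 lower, and limma on log2(FPKM + 1) 23 higher and 0 lower. The median log2 fold change of this list was 0.345. NOP56 and NOP58, core proteins of the box C/D particles that guide methylation, stood at 0.63 (SE 0.05) and 0.45 (SE 0.05) with edgeR adjusted p of 0.000508 and 0.00114. DKC1, the pseudouridine synthase, stood at 0.54 (SE 0.05) with an edgeR adjusted p of 0.000819, and RRP12, an export factor, at 0.61 (SE 0.06) with 0.00108. With genes such as DKC1 and RRP12, the list is wider than the particle it is named for. RNA polymerase I and its factors had 4 of 15 (26.7%) called higher and 0 lower by edgeR, against 5.49% and 4.54% of all genes, with a median of 0.205. DESeq2 called 7 of the 15 and limma on log2(FPKM + 1) called 3. Of all genes, in both directions together, DESeq2 called 1828, limma 1143 and edgeR 1157. The polymerase subunit gene CD3EAP stood at 1.01 (SE 0.12) with an edgeR adjusted p of 0.00195, POLR1B at 0.52 (SE 0.07) with 0.0039, POLR1E at 0.34 (SE 0.05) with 0.00562 and TWISTNB at 0.36 (SE 0.09) with 0.0361, and TWISTNB was called under 8 of 17 alternative settings.

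The last lists hold the proteins of the finished subunit and genes of cell division. Of 45 genes for large subunit ribosomal proteins, edgeR called 0 in either direction, 0 had an unadjusted p under 0.05, and DESeq2 and limma called 0. Their median log2 fold change was 0.04, with 27 of 45 above 0 and a range of -0.355 to 0.224. The proliferation list, DNA replication and mitosis genes such as MKI67, had 0 of 12 called by edgeR, DESeq2 or limma. Its median was -0.10, with 2 of 12 above 0. At an unadjusted p under 0.05 in edgeR's fit 2 were lower, a share that was not taken over all genes. Only CDK1 had separate groups, lower in the rFGF4 libraries, as had 1068 of the 11536 tested genes. The difference between any of these lists and the members was not tested, since the members were chosen on the same contrast and the lists with earlier results known.

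**Figure D5:**
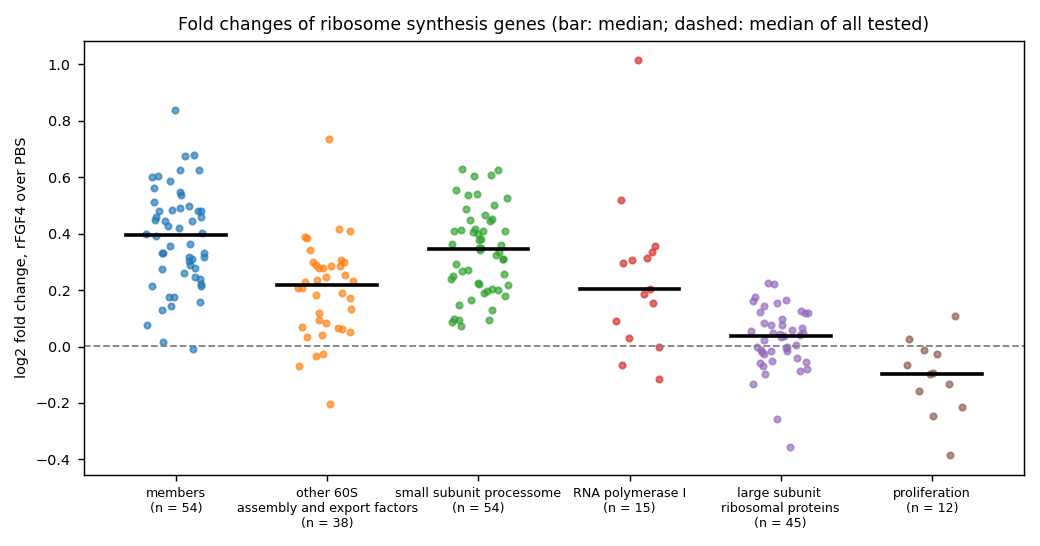
Log2 fold change (rFGF4 over PBS) of each gene in 6 lists, with the median as a bar and the median of all tested genes as a dashed line. The medians are 0.40 for the 54 members, 0.22 for other large subunit factors, 0.345 for the small subunit processome, 0.205 for RNA polymerase I, 0.04 for large subunit ribosomal proteins and -0.10 for proliferation genes.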

How the data were processed

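RNA-seq values of 8 libraries were analysed, 4 labelled rFGF4 and 4 labelled PBS. Columns named FGF4 were matched to the rFGF4 libraries by name and replicate number. No column is named PBS, and the columns named C were taken as the PBS controls with the same replicate numbers. With this, 0 value columns were left unmatched. The submitters' processing notes name HISAT2 2.0 and StringTie 1.3.0 without their roles; neither build nor annotation is stated in the sources used here, so positions are those of the table. Per the file headers, the authors deposited FPKM for each gene and library, in which 0.0001 stands for 0. They also deposited counts, which are whole numbers but were treated as estimated counts, because low values piled up at 4 (9781 entries, against 3485 at 3 and 1977 at 5). Because the genes are human, 521 of 58825 rows (Y-linked genes, XIST, TSIX) were dropped. Libraries held 62044121 to 73680756 counts.

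The counts as deposited were fitted in edgeR 4.0.16 (R 4.3.3; TMM, glmQLFit, glmQLFTest, two-sided) over the 11536 genes whose mean reached 1 FPKM, with Benjamini-Hochberg adjustment over all of them and a threshold of 0.05. The method was tested on simulated data. Its pass was set only on changes larger than that of any member, so it says nothing on smaller changes. Alternatives were other scalings, DESeq2 1.42.0, limma 3.58.1 on log2(FPKM + 1) and log2(FPKM + 0.1), other filters, a replicate block and each library left out. Leaving out both libraries numbered 4 was added after seeing the data. Members and lists (other large subunit factors, large subunit ribosomal proteins, small subunit processome, RNA polymerase I, proliferation, markers of basal and differentiated keratinocytes, fibroblasts, endothelium, leukocytes and skeletal muscle) were chosen with earlier results of these data known. Values per library are printed for the 8 largest and 4 smallest fold changes, the PeBoW complex, NPM1, NCL, RRS1, RPF2, NOP2, MDN1 and MYC; of each list, the 4 genes with the smallest p past the threshold are named. Values per library of PA2G4, MYBBP1A, DDX21, GNL3, NLE1 and NIP7, and the keratinocyte genes KRT5, KRT14, LAMB3 and TGM1 and the partners NOC4L and TAF5L, were named outside this rule after their values were seen. Promoters, motifs and protein sequences are not analysed here.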

Additional observations from a re-analysis of the deposited data

Results flagged for a closer look

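The 4 values of each member, and of MYC, within a group were examined for a library far from the rest, and 8 of 110 groups had one; chance flags about 1 in 20 groups. In rFGF4 replicate 4, 5 members stood apart from the other 3 rFGF4 libraries. ZNF593 was at 36.78 CPM there (others 27.85 to 29.02), RRS1 at 156.4 CPM (others 139.5 to 141.7), MRTO4 at 166.1 CPM (others 141.6 to 143.5) and RRP1 at 64.86 CPM (others 46.27 to 49.36). GNL3L was low instead, at 24.33 CPM (others 28.86 to 29.61). ZNF593, RRS1, MRTO4 and RRP1 have relative lengths of 0.161, 0.377, 0.561 and 0.933, and GNL3L has 1.93; the part of length in these values was not tested.

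In the PBS libraries, NOP2 was at 66.13 CPM in replicate 2 (others 101.7 to 104.2). PPAN was at 38.83 CPM in PBS replicate 3 (others 32.35 to 33.44) and NVL at 35.28 CPM in PBS replicate 1 (others 32.42 to 32.89).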

How the results depend on the processing

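The 54 members gave 918 fold changes under 17 alternative settings, of which 17 were below 0, all of NVL or DDX24. These uncalled genes took either sign, NVL between -0.021 and 0.048 and DDX24 between -0.058 and 0.115, and 0 of the 36 called members changed sign. Of the 36 members called, 21 were called under every setting; 10 of the 54 were called under none, and 8 only under an alternative. The median log2 fold change of the members lay between 0.307 (limma on log2(FPKM + 1)) and 0.408. DESeq2 called 13 of the other large subunit factors, 7 of the RNA polymerase I genes and 1828 of all genes, where edgeR called 6, 4 and 1157. For the same lists limma on log2(FPKM + 1) called 5, 3 and 1143. Without both libraries numbered 4, 3 of the other factors were called. Leaving out 1 library gave 22 to 37 members, 1 to 6 other large subunit factors, 21 to 30 processome genes, 3 to 5 RNA polymerase I genes and 601 to 1166 of all genes. All genes called were 715 and 675 without rFGF4 replicates 1 and 3, and 732, 601 and 768 without PBS replicates 1, 2 and 3. The cause was not tested. The replicate block gave 31 members, 6 other factors and 1013 of all genes; same-numbered libraries correlated at 0.123, 0.058, -0.022 and 0.284, so not every pair was above 0.1 and 5 of 8 libraries correlated best with their own number; nothing in the labels ties the numbers together, and the block was kept as an alternative.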
